A study of Mus musculus with 2 samples.

Results

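The regulatory T (Treg) cells described here were selected on measured values: a cell belonged to the class when it held 3 or more Itgae UMIs (unique molecular identifiers, each counting 1 captured RNA molecule) and 0 UMIs of each of Ccr9, Cxcr6, Mmp9 and Il10. The rule was met by 641 of 7024 cells (9.13%). The cells came from 1 control library, pooled from 5 Foxp3DTR-GFP/y Cd4creERT2 mice whose Foxp3 allele works from birth and also encodes GFP and the diphtheria toxin receptor, and 1 rescued library, pooled from 4 Foxp3LSL/y Cd4creERT2 mice in which a stop cassette silences Foxp3 until Cre excises it. All were C57BL/6 males given 4-hydroxytamoxifen, the drug that activates the Cd4-driven CreERT2, on postnatal day 14. The labels give an age of 7 months, and the study's methods count the 7 months from the treatment. GFP+ Treg cells were sorted from spleen and lymph node, and a tdTomato reporter switched on by the same Cre marked cells that descend from CD4-expressing cells present at treatment. Each group is 1 library of pooled mice, so there are no replicates and differences are given without a test. The intervals below are 95% counting intervals, which leave out differences between mice and between captures. Those of ratios and CPM levels treat every UMI as independent, so they also leave out the uneven spread of UMIs among cells.

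Itgae (chromosome 11, 73090583 to 73147446, GRCm38) encodes the αE integrin chain, known at the cell surface as CD103. The αE chain pairs with the β7 chain, encoded by Itgb7, and the pair binds E-cadherin on epithelial cells. TGF-β induces CD103 in T cells, and CD103+ Treg cells are known in barrier tissues and among effector Treg cells of lymphoid organs. The 4 genes used for exclusion encode the gut-homing receptor CCR9 (Ccr9), a receptor of liver, lung and other tissue T cells (Cxcr6), a matrix metalloproteinase (Mmp9) and the suppressive cytokine interleukin-10 (Il10).

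The class made up 117 of 3634 cells in the control library (3.22%, 2.67 to 3.85) and 524 of 3390 in the rescued library (15.5%, 14.3 to 16.7). Itgae itself was at 717 CPM in the control class and 724 CPM in the rescued class, where CPM is the gene's share of a population's summed UMIs in counts per 1000000. Among the other cells it was at 50.8 CPM in the control and 214 CPM in the rescued library. These Itgae values chose the cells and are given as a description. The median class cell held 4 Itgae UMIs in each library, and the highest held 9 in the control and 17 in the rescued library. Exactly 3 UMIs were found in 58 control cells (49.6% of the class) and 197 rescued cells (37.6%), and just outside the cutoff 125 control and 339 rescued cells held 2 Itgae UMIs and none of the excluded genes. Among all cells with 3 or more Itgae UMIs, 29 of 146 control cells (19.9%) and 215 of 739 rescued cells (29.1%) were left out because they held one of the excluded genes. Ccr9 accounted for most of these in the rescued library (144 cells, 19.5% of the Itgae-high cells). In the control library Ccr9 (14 cells) and Cxcr6 (13 cells) were found about equally often.

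**Figure D1:**
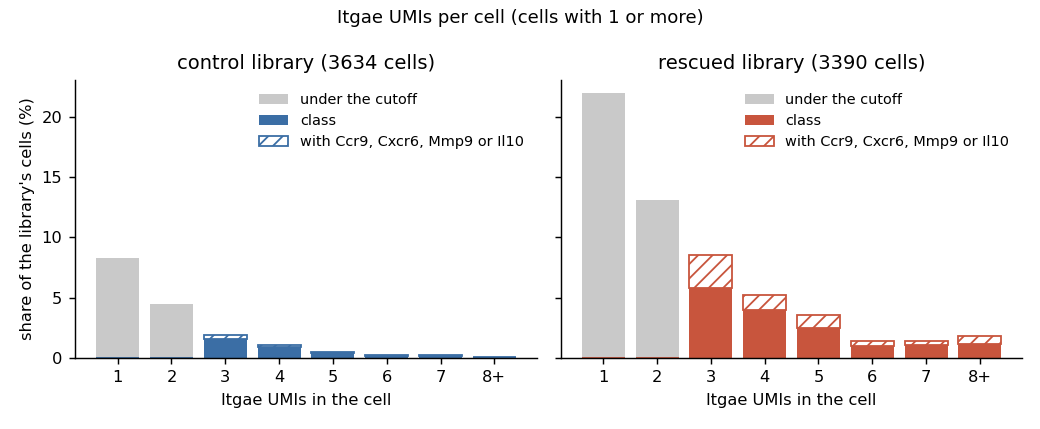
Share of each library's cells (percent) by the number of Itgae UMIs in the cell, for cells with 1 or more. Filled bars are the class, hatched bars are Itgae-high cells that held Ccr9, Cxcr6, Mmp9 or Il10, and grey bars are below the cutoff; the class is 3.22% of control and 15.5% of rescued cells.

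A cutoff on UMIs favours deeply captured cells. The median class cell had 4802 UMIs in the control and 5216 UMIs in the rescued library, against 3719 and 3683 UMIs in the other cells. The class held 638764 UMIs (4.14% of the control library) and 3289473 UMIs (21.2% of the rescued library). When the cutoff was applied to counts scaled to the median cell total, the class shrank to 1.79% of control and 7.85% of rescued cells. The order of the libraries was the same under all 8 other settings tried for the class and the cells kept. Cell barcodes shared by the libraries numbered 3, and 1 of them belonged to a class cell.

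Class cells carried T cell and Treg markers. All 8 T cell genes had UMIs in the class, with a summed level of 6389 CPM in control and 6503 CPM in rescued class cells, against 5993 and 6675 CPM in the other cells. The 9 core Treg genes summed to 5993 CPM in control and 7117 CPM in rescued class cells, against 4352 and 6273 CPM elsewhere. Of 7 markers of CD8 T and NK cells in the table, Cd8a, Klrd1 and Klrk1 had 0 UMIs in the class of each library, and the whole list summed to 56.4 CPM in the control class, 66.0 in other control cells, 61.4 in the rescued class and 38.8 in other rescued cells. Nkg7, a cytotoxic granule gene, was higher in the rescued class (139 UMIs, 42 of them in 1 cell, and 263 elsewhere, log2 ratio 0.98, 0.67 to 1.28), and its part in other results was not tested. Myeloid markers summed to between 168 and 215 CPM in the 4 populations, nearly all of it Cst3, which T cells also express; Tyrobp, Itgam and S100a9 were at 0 in the class. The red blood cell genes summed to 3.34 CPM or less. The B cell and antigen presentation genes are described with their values further on.

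The label that the class lacks other homing markers held for the excluded genes, which the rule fixed, and not for homing receptors in general. At least 1 UMI of any of 8 further chemokine receptors (Ccr2, Ccr3, Ccr4, Ccr6, Ccr8, Ccr10, Cxcr3 and Cxcr5) was found in 82 of 117 control class cells (70.1%) and 387 of 524 rescued class cells (73.9%). The other cells had one in 33.9% of control and 63.6% of rescued cells. With every cell thinned to 2000 UMIs, which left out 65 control cells and 33 rescued cells, the shares were 44.4% (35.3 to 53.9) against 22.6% (21.2 to 24.0) in control, and 51.1% (46.7 to 55.4) against 46.5% (44.6 to 48.3) in rescued cells. Class membership was kept from the full counts here, so these shares still hold the choice of deep cells. The intervals were separate in the control library and overlapped in the rescued library. All cells were sorted Treg cells, so no cell type that lacks these receptors was at hand to measure free RNA.

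Ccr10, the receptor for skin and mucosal chemokines, had the largest ratio among these receptors. In control cells it had 6 UMIs in the class and 12 in all other cells, a log2 ratio of 3.53 (1.84 to 5.06). In rescued cells it had 82 UMIs in the class (24.9 CPM) and 64 elsewhere (5.23 CPM), a log2 ratio of 2.25 (1.76 to 2.75). The class, which had 21.2% of the rescued library's UMIs, held 56.2% of its Ccr10 UMIs. These UMIs came from few cells: 3 control and 17 rescued class cells had any, and 1 rescued cell had 26. Without cells that held 2 or more late cell cycle UMIs, the rescued ratio was 0.76. In control cells Ccr10, Ccr3 and Ccr4 had fewer than the 10 UMIs expected in the class that entering the counts of genes below required.

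Ccr3, the eotaxin receptor best known from eosinophils and type 2 responses, had 6 UMIs in the control class and 20 in other control cells (log2 ratio 2.80, 1.19 to 4.17). In rescued cells it had 53 UMIs in the class and 50 elsewhere (1.98, 1.40 to 2.57). Among rescued class cells with a Ccr10 UMI, 6 of 17 also had Ccr3, against 14 of the 507 without Ccr10, and the Ccr10 cells had the higher median depth (7714 against 5182 UMIs). Ccr2, the receptor for monocyte chemoattractant proteins, was at 78.3 CPM in the control class and 32.3 CPM in other control cells (log2 ratio 1.28, 0.83 to 1.70). In rescued cells it was at 98.5 and 61.8 CPM (0.67, 0.48 to 0.86), and 0.13 when the other cells were weighted to the class's depth. Ccr6, the CCL20 receptor, had ratios of 1.32 (0.84 to 1.77) in control and 0.55 (0.30 to 0.80) in rescued cells.

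Other receptors separated the libraries. Ccr4 had a log2 ratio of 1.05 (0.29 to 1.73) in control cells and 0.13 (-0.16 to 0.41) in rescued cells. Cxcr3, the receptor of type 1 responses, was at 125 CPM in the control class and 82.9 CPM in other control cells, but at 207 and 217 CPM in rescued cells. Cxcr5, the follicle-homing receptor, was lower in the rescued class (33.4 against 55.0 CPM, log2 ratio -0.72, -1.02 to -0.43) and had an interval that included 0 in control cells (0.48, -0.11 to 1.02). Gpr183 was within 0.05 of even in each library. Of the 15 listed homing receptors, 7 could be compared in the control library and 3 of them (Ccr2, Ccr6 and Cxcr3) were at least 1.5-fold higher in the class, against 5.25% of all 7013 genes compared. In the rescued library 13 could be compared, of which 4 (Ccr2, Ccr3, Ccr8 and Ccr10) were at least 1.5-fold higher and 1 (Cxcr5) lower, against 2.5% and 2.47% of 9849 genes. Ccr8, with 18 UMIs in the rescued class, had a ratio of 0.61 and an interval that included 0 (-0.27 to 1.43). The list medians were 0.48 and 0.36, beside medians of 0.025 and 0.0059 over all genes, and the rescued median was -0.086 with cells thinned to 2000 UMIs.

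**Figure D2:**
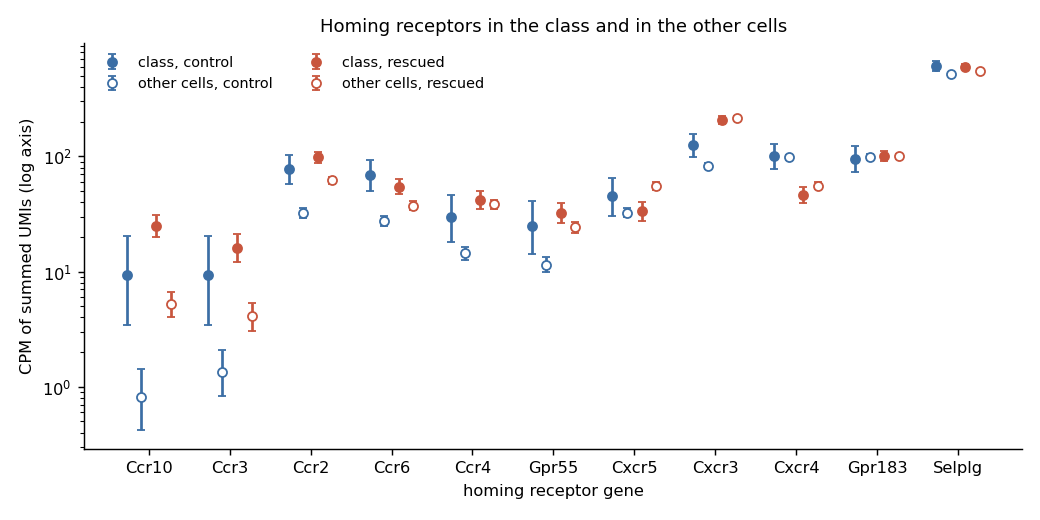
CPM of summed UMIs (log axis) of 11 homing receptor genes in class cells (filled) and other cells (open) of the control and rescued libraries, with 95% Poisson intervals. Ccr10, Ccr3, Ccr2 and Ccr6 are higher in the class in each library, and Cxcr5 is lower in the rescued class alone.

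To find what set the class apart in each library, every gene with at least 10 UMIs expected in the class was compared with all other cells of the same library. Of 7013 genes that met this minimum in both libraries, 13 (0.185%) were at least 1.5-fold higher in the class in each, Itgae among them, and 11 (0.157%) were at least 1.5-fold lower, Ccr9 among them. In the control library alone 368 genes were higher and 387 lower (5.52%), and in the rescued library alone 246 were higher and 243 lower.

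Compared with all other cells, cytokine receptors and calcium-binding proteins led the higher genes. Il18r1, the interleukin-18 receptor, was at 177 CPM in the control class and 55.7 CPM elsewhere, 3.18-fold (log2 ratio 1.67, 1.37 to 1.95). In rescued cells it was at 92.1 and 53.6 CPM (0.78, 0.58 to 0.98). It was found in 48 of 117 control class cells, and its ratio in control cells lay between 1.51 and 1.90 under the other settings tried, while the rescued ratio lay between 0.32 (cutoff on scaled counts) and 0.96. Il1r2, the decoy receptor for interleukin-1, had log2 ratios of 1.45 (0.92 to 1.94) in control and 0.93 (0.70 to 1.16) in rescued cells. It was found in 9 control class cells, 1 of which held 16 of the 38 UMIs, and the control ratio was 0.77 without the highest cell of each population and 0.077 with the Itgae cutoff on scaled counts. Its rescued ratio was 0.40 with the other cells weighted to the class's depth.

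S100a4 and S100a6 encode small calcium-binding proteins linked to cell movement. S100a4 was found in 42 control (35.9%) and 201 rescued class cells (38.4%), with up to 163 UMIs in a rescued class cell. S100a6 was found in 52 (44.4%) and 293 class cells (55.9%). S100a4 was at 952 CPM in the control class and 353 CPM elsewhere (log2 ratio 1.43, 1.31 to 1.55), and at 865 and 532 CPM in rescued cells (0.70, 0.64 to 0.76). S100a6 was at 748 and 310 CPM in control cells (1.27, 1.13 to 1.41) and at 1007 and 600 CPM in rescued cells (0.75, 0.69 to 0.81). Lgals1, which encodes the glycan-binding protein galectin-1, had ratios of 0.67 (0.50 to 0.83) and 0.88 (0.81 to 0.95). In the rescued library the ratios of S100a4, S100a6 and Lgals1 were -0.10, -0.15 and -0.08 with the Itgae cutoff on scaled counts and 0.30, 0.21 and 0.36 with the other cells weighted to the class's depth, but 0.56, 0.73 and 0.85 with cells thinned to 2000 UMIs.

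Cd74, the invariant chain of MHC class II, was higher in the class in control (291 against 148 CPM, log2 ratio 0.98, 0.75 to 1.19) and rescued cells (487 against 309.5 CPM, 0.65, 0.57 to 0.74). Gna15, a G protein subunit, had ratios of 1.15 and 0.74, and E2f2, a cell cycle transcription factor, of 0.85 and 0.64. The E2f2 ratio was 0.065 in control cells thinned to 2000 UMIs and 0.005 in rescued cells with the cutoff on scaled counts. Apol9b, an interferon-inducible gene with a near-identical copy among whose reads it cannot be told apart with certainty, had ratios of 1.01 and 0.68. Aldh2 (0.70 and 0.80) and Dhx58 (0.63 and 0.73) rested on 17 UMIs each in the control class, and their control intervals included 0.

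Genes of resting and recirculating T cells led the lower genes. Igfbp4 was at 15.7 CPM in the control class and 127 CPM elsewhere (log2 ratio -3.02, -4.09 to -2.14), and at 14.6 and 30.7 CPM in rescued cells (-1.07, -1.54 to -0.64). Ly6c1, a surface protein of naive-like and central T cells whose reads may be shared with its relatives, had ratios of -2.58 (-3.42 to -1.86) and -1.23 (-1.74 to -0.76). Dapl1 had 0 UMIs in the control class against 380 in other control cells, a log2 ratio of at most -2.45 by a floor of 3 counts in the class. In the rescued class it had 5 UMIs, against 188 elsewhere (-3.34, -4.98 to -2.09). Cd9, a tetraspanin, was lower by nearly the same ratio in each library (-1.15, -1.71 to -0.64, and -1.17, -1.58 to -0.78). The remaining lower genes by the naming rule were Nefh, 2810454H06Rik, Mirt1, Atp1b1, Tnfsf8 and Themis, with ratios between -1.57 and -0.61 in control and between -0.84 and -0.70 in rescued cells. Tnfsf8, the CD30 ligand, had the most UMIs of these (36 and 117 in the class). Themis, with 12 UMIs in the control class, had a control interval that included 0.

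**Figure D3:**
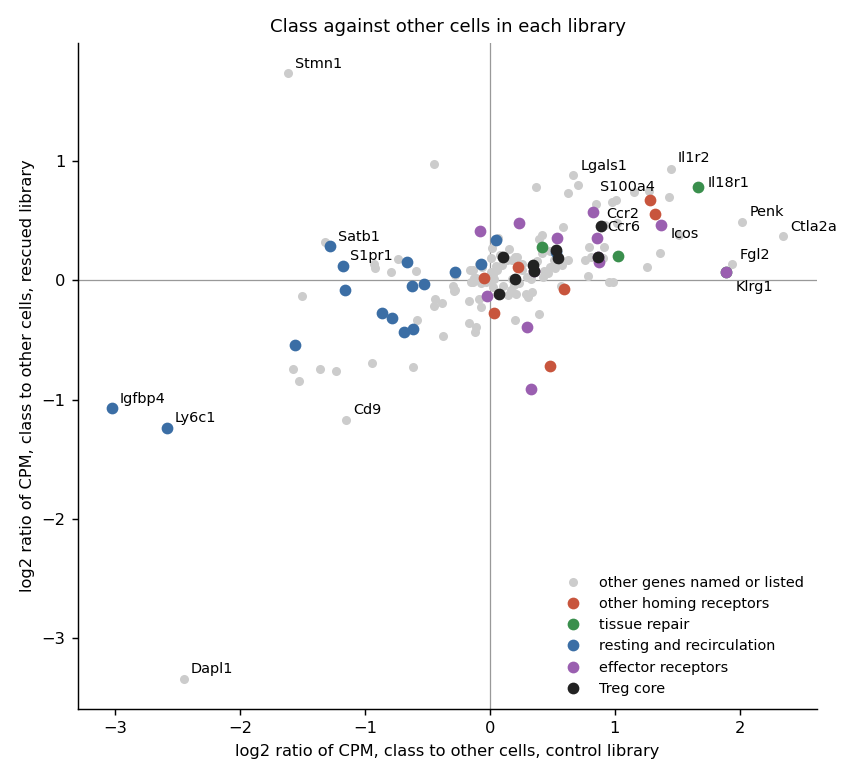
Log2 ratio of CPM in the class to CPM in the other cells, in the control (x axis) and rescued library (y axis), for the listed and named genes that had enough UMIs in both libraries, without the genes of the rule. Il18r1, Il1r2 and Ccr2 lie to the upper right, Igfbp4, Ly6c1, Cd9 and Dapl1 to the lower left (the control value of Dapl1 is a bound), and Stmn1 has opposite signs.

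The integrin and TGF-β genes were examined next, since CD103 works with them. Itgb7, the partner chain of Itgae, was at 607 CPM in the control class and 537 CPM elsewhere (log2 ratio 0.18, 0.03 to 0.33), and at 706 and 629 CPM in rescued cells (0.17, 0.10 to 0.23). Itgb1, the common β1 chain, had ratios of 0.58 (0.34 to 0.82) and 0.45 (0.34 to 0.56). Itgb8, which with αV activates latent TGF-β, had ratios of 0.90 (0.40 to 1.36) and 0.18 (-0.03 to 0.39). Of the listed integrin subunits, 1 of 8 compared in the control and 0 of 10 compared in the rescued library were at least 1.5-fold higher, against 5.25% and 2.5% of all genes, and 0 were lower. The medians were 0.40 and 0.14. Itga4, which pairs with β7 for gut homing, was lower in the rescued class (-0.36, -0.48 to -0.24).

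Tgfbr1, the type I TGF-β receptor, was at 171 CPM in the control class and 84.3 CPM elsewhere (log2 ratio 1.02, 0.72 to 1.30), and at 197 and 142 CPM in rescued cells (0.48, 0.34 to 0.61). Pmepa1, a target and inhibitor of TGF-β signalling, had ratios of 0.76 (0.50 to 1.02) and 0.17 (0.05 to 0.29). Tgfbr2, Smad2, Smad4, Smad7, Tgif1, Runx1 and Runx3 had control intervals that included 0. Of 17 pathway genes compared in each library, 3 were at least 1.5-fold higher in the control class and 0 in the rescued class, against the same shares of all genes, 0 were lower, and the medians were 0.14 and 0.16. Genes known from tissue-resident T cells had medians of 0.15 and 0.17 over 8 genes compared. In control cells Prdm1, a repressor active in resident and effector T cells, was higher (1.36, 0.74 to 1.93), as was Cd101, while Rgs2 and Nr4a1 were at least 1.5-fold lower. Over all control genes compared, 5.25% were higher and 5.52% lower. In rescued cells 0 of the 8 resident T cell genes differed by 1.5-fold, beside 2.5% higher and 2.47% lower over all genes.

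The tissue repair list held genes of Treg cells that respond to alarmins in tissues. Its median log2 ratio was 1.35 over 4 genes compared in control and 0.60 over 8 genes compared in rescued cells, and 3 (Klrg1, Rora and Il18r1) and 4 (Areg, Il1rl1, Il18r1 and Il18rap) of them were at least 1.5-fold higher in the class, against 5.25% and 2.5% of all genes compared. Il1rl1, Areg and Il18rap fell short of the minimum in the control library, and their control values are given with their intervals alone. Il1rl1, the receptor for interleukin-33, had 44 UMIs in the control class and 170 elsewhere (log2 ratio 2.58, 2.07 to 3.07), and 113 and 183 UMIs in rescued cells (1.20, 0.85 to 1.55). In the rescued library its ratio was 0.11 with the Itgae cutoff on scaled counts. Il1rl1 and Il18r1 were often found together: 40 of 82 class cells with Il1rl1 also had Il18r1, against 168 of the 559 without it, at median depths of 6882 and 4920 UMIs. Il18rap, the second interleukin-18 receptor chain, had ratios of 1.21 (0.11 to 2.15) and 0.83 (0.33 to 1.31). The transcription factors Gata3 (0.41 and 0.28) and Rora (1.03 and 0.21) had intervals above 0 in each library.

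Areg, the growth factor amphiregulin made by tissue-repair Treg cells, had 211 UMIs in the rescued class and 215 in all other rescued cells. The class thus held 49.5% of the library's Areg UMIs, a log2 ratio of 1.87 (1.59 to 2.15), and 1 of its 30 Areg-positive cells held 109 of the 211. Without the highest cell of each population the ratio was 0.99, and at 4 or more Itgae UMIs it was 0.52. In control cells Areg had 12 UMIs in the class and 95 elsewhere (1.55, 0.55 to 2.42). Klrg1, which marks terminally differentiated effector cells, had 53 control class UMIs and a ratio of 1.89 (1.45 to 2.31) in control, and of 0.07 (-0.19 to 0.31) in rescued cells.

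Several activation receptors and suppressor genes were higher in the control class. Icos, a costimulatory receptor of effector Treg cells, was at 612 CPM in the control class and 237 CPM elsewhere (log2 ratio 1.37, 1.22 to 1.52). In rescued cells it was at 803 and 584 CPM (0.46, 0.39 to 0.52). Fgl2, a secreted suppressor protein, had ratios of 1.94 (1.58 to 2.28) and 0.14 (-0.01 to 0.28), Ebi3, a chain of interleukin-35, of 1.51 and 0.38, and Ctla4, the inhibitory receptor, of 0.87 and 0.20. Of 13 effector receptors compared in control cells 6 were at least 1.5-fold higher, and of 8 suppressor genes 5, against 5.25% of all genes, with 0 lower in either list. In rescued cells 0 of 14 effector receptors and 2 of 11 suppressor genes (Lgals1 and Areg) were higher, against 2.5% of all genes, and Lag3 (-0.91, -1.16 to -0.68) and Gzmb (-0.66) were lower with intervals below 0. Of the 535 Gzmb UMIs in the other rescued cells, 1 cell held 97. Whether the class ratios differ between the libraries was not tested, since each library is 1 sample. The other rescued cells already had higher levels than the other control cells, with a log2 ratio of 1.30 for Icos, 1.98 for Fgl2 and 0.88 for Ctla4.

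Penk, which encodes proenkephalin, had a log2 ratio of 2.02 (1.75 to 2.28) in control cells, but 1 control class cell held 105 of the 138 UMIs. Without the highest cell of each population the ratio was 0.22. Ctla2a, a cysteine protease inhibitor with a close relative, had a control ratio of 2.35 (2.07 to 2.62) spread over 40 class cells, and a rescued ratio of 0.37 (0.13 to 0.60).

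Resting and recirculation genes as a group were lower in the control class. Of 17 compared there, 12 were at least 1.5-fold lower, against 5.52% of all genes, and 0 higher, with a median of -0.68. S1pr1, the receptor for lymphoid egress, was at 83.0 CPM in the class and 187 CPM elsewhere (log2 ratio -1.18, -1.60 to -0.78). The transcription factors Satb1 (-1.28, -1.66 to -0.92), Bach2 (-1.16, -1.82 to -0.57), Tcf7 (-0.68, -0.99 to -0.39) and Klf2 (-0.66, -0.82 to -0.51) were lower as well. In the rescued library 2 of 18 were at least 1.5-fold lower (Igfbp4 and Ly6c1), against 2.47% of all genes, and 1 higher (Myb), with a median of -0.043. There S1pr1 had a ratio of 0.12 (-0.06 to 0.30), Satb1 of 0.28 (0.12 to 0.45), and Tcf7 of -0.43 (-0.64 to -0.23). Klf2 had a rescued ratio of 0.16 (0.07 to 0.24), which turned negative under 7 of the alternatives, to between -0.01 and -0.45. Il7r, the interleukin-7 receptor, was higher in the class in each library (0.53 and 0.24).

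Lineage transcription factors were mostly even or slightly higher. Of 15 compared in control cells, 5 were at least 1.5-fold higher (Prdm1, Maf, Ahr, Rora and Id2), against 5.25% of all genes, and 0 lower. Of 17 compared in rescued cells, 1 was higher, against 2.5% of all genes: Irf4, a factor of effector Treg cells, with a ratio of 0.78 (0.49 to 1.07). Ikzf2, which encodes Helios, was at 1797 and 1244 CPM in control (0.53) and at 1903 and 1596 CPM in rescued cells (0.25). Foxp3 had ratios of 0.35 (-0.04 to 0.71) and 0.13 (0.05 to 0.21). The tdTomato fate reporter did not separate the class from the other cells in either library (log2 ratio -0.07, -0.27 to 0.11, and -0.02, -0.09 to 0.05). Interferon response genes (medians -0.088 and -0.011) and immediate early genes (-0.087 and -0.015) lay near the median of all genes, and the persisting-subset genes named in the study had medians of 0.10 and 0.11, with Epcam at 1.26 (0.78 to 1.70) in control and 0.11 (-0.05 to 0.28) in rescued cells.

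Levels were then followed along the number of Itgae UMIs, in cells without the excluded genes. In control cells Icos was at 186 CPM at 0 Itgae UMIs, 290 at 1, 413 at 2, 475 at 3, 609 at 4 to 5 and 1196 at 6 or more. In rescued cells the same steps gave 469, 501, 669, 734, 763 and 936 CPM. Il18r1 went from 48.9 to 275 CPM over the same steps in control cells and from 47.3 to 81.2 CPM in rescued cells. Cd9 was at 116 CPM at 0 Itgae UMIs, 72.9 at 2 and 46.2 at 3 in control cells, and at 64.0, 27.9 and 34.6 CPM in rescued cells. Igfbp4 had most of its drop below the cutoff in control cells, from 150 CPM at 0 to 14.9 at 2. In rescued cells its steps were uneven, at 52.2, 15.3, 36.8, 26.9, 5.33 and 13.9 CPM. Across the cutoff itself, from 2 to 3 UMIs, S100a4 was at 679 and 1102 CPM in control and at 499 and 1042 CPM in rescued cells, but at 647 CPM at 4 to 5 in rescued cells, so its steps were uneven. Itgb7 stayed between 527 and 666 CPM in control and between 619 and 746 CPM in rescued cells. The median depth grew along the same axis, from 3667 UMIs at 0 to 4985 at 6 or more in control and from 3442 to 7544 UMIs in rescued cells, and its part in these levels was not tested.

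**Figure D4:**
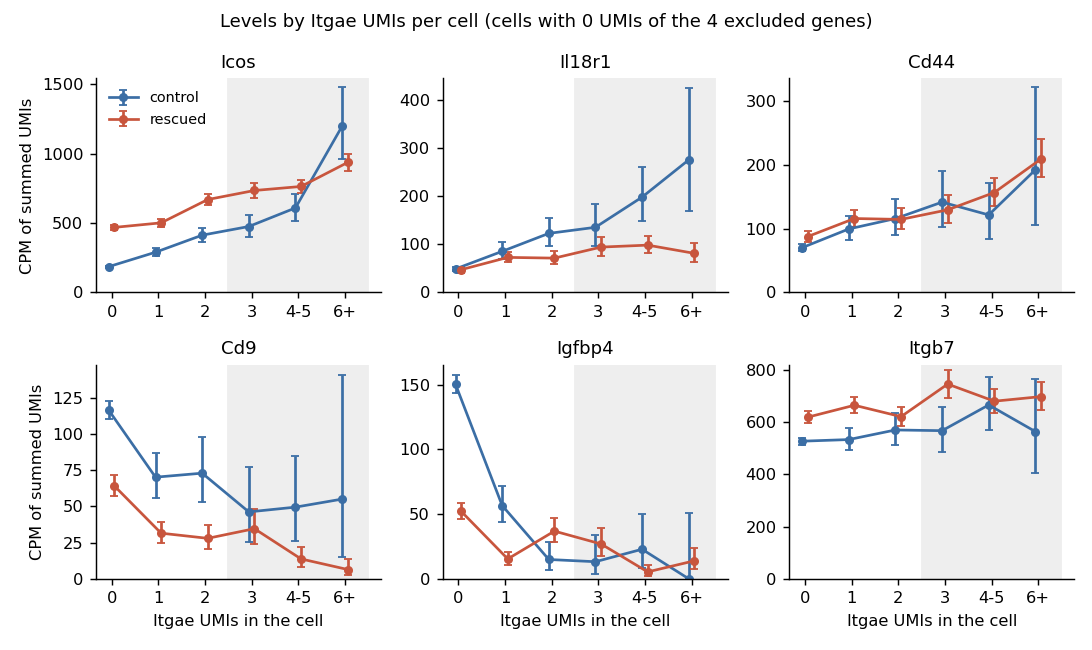
CPM of summed UMIs of 6 genes by the number of Itgae UMIs in the cell, for control and rescued cells with 0 UMIs of the excluded genes, with 95% Poisson intervals; the shaded bins form the class. Icos, Il18r1 and Cd44 are higher at more Itgae UMIs, Cd9 and Igfbp4 are lower (Igfbp4 unevenly in rescued cells), and Itgb7 is nearly level.

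Against the cells with 0 UMIs of Itgae and of the excluded genes (2849 control and 1304 rescued cells), the differences were larger. In both libraries 46 of 6979 genes (0.659%) were at least 1.5-fold higher in the class and 27 (0.387%) lower. Ccr2 had log2 ratios of 2.30 and 1.49 in this comparison, Ccr6 of 1.63 and 1.09, Tgfbr1 of 1.21 and 1.11, and Arl5a, a small GTPase, of 1.65 and 1.17. Ccr10 had 3 UMIs in the 2849 control cells without Itgae and was at 0.60 CPM in the 1304 such rescued cells, against 9.39 and 24.9 CPM in the class.

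Against the Itgae-high cells left out by the rule (29 control and 215 rescued cells), 16 of 3546 genes (0.451%) were at least 1.5-fold higher in the class in both libraries and 11 (0.31%) lower, Ccr9 and Cxcr6 among the latter. These cells and the class were both chosen at 3 or more Itgae UMIs, so the rule largely set their near-even Itgae (log2 ratios 0.12 and 0.00). S1pr1 (1.42 and 1.29) and Itgb1 (1.24 and 1.60) were higher in the class. Penk had ratios of 1.93 and 1.93, the first of which includes the 1 control cell with 105 of the 138 class UMIs. Klf2 was at 433 CPM in the rescued class and 119.8 CPM in the rescued cells left out (1.85, 1.62 to 2.10), with a ratio of 0.55 (0.18 to 0.94) in control. Lag3, an inhibitory receptor, was lower in the class with ratios of -2.31 (-2.84 to -1.79) and -1.19 (-1.52 to -0.87), as were Gzmb, a cytotoxic granzyme (-1.72, -2.66 to -0.77, and -2.75, -3.11 to -2.40), and Id2, a regulator of effector differentiation (-1.13 and -0.76). The Gzmb UMIs of the class lay in few cells, 6 in the control and 25 in the rescued library. Other effector genes were mixed. Fgl2 (-0.65, -1.21 to -0.06, and -0.83, -1.03 to -0.63) and Icos (-0.50 and -0.27) were lower in the class as well. Tnfrsf4 was near even (-0.03 and 0.00), Irf4 had opposite signs (-1.28 and 0.70), and Il1rl1 had ratios of 0.74 (-0.36 to 2.04) and 0.85 (0.22 to 1.52). Ccr2 was also lower than in the cells left out (-1.88 and -0.50), although it was higher than in all other cells. S100a6, S100a4 and Lgals1 were lower in the control class than in the control cells left out (-1.47, -0.57 and -0.70). Their rescued ratios were 0.03, 0.05 and 0.22. Il18r1 (0.64, -0.03 to 1.37, and 0.95) and Il1r2 (2.53 and 1.72) had positive ratios, though Il1r2 had 2 UMIs in the control cells left out.

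Of 12 cell cycle genes compared in rescued cells, 4 (Mki67, Ccnb2, Birc5 and Stmn1) were at least 1.5-fold higher in the class, against 2.5% of all genes, and 0 lower. Of 7 compared in control cells 0 were higher and 2 (Mcm5 and Stmn1) lower, against 5.52% of all genes. Mki67, a proliferation marker, had 103 UMIs in the rescued class and 150 elsewhere (log2 ratio 1.35, 0.98 to 1.73), Birc5, a mitotic gene, 72 and 34 (2.98, 2.37 to 3.61), and Ccnb2, a mitotic cyclin, 65 and 44 (2.46, 1.89 to 3.05). In the control class the same genes had 10, 0 and 2 UMIs. Stmn1, a tubulin-binding protein of dividing cells, was higher in the rescued class (1.74, 1.41 to 2.06) and lower in the control class (-1.62, -3.25 to -0.38), where 5 UMIs were found. DNA replication genes such as Pcna (-0.09), Mcm2 (0.03) and Tyms (0.08) were even in rescued cells. At least 2 UMIs summed over 7 late cell cycle genes were found in 46 of 524 rescued class cells (8.78%, 6.50 to 11.5) and in 2.23% (1.72 to 2.84) of the other rescued cells. In control cells the shares were 2.56% (0.53 to 7.31) and 1.56% (1.18 to 2.03). At 2000 UMIs per cell they were 2.87% (1.61 to 4.69) and 0.529% (0.297 to 0.871) in rescued cells, and 0.855% and 0.348% in control cells. Class membership was again kept from the full counts. The rescued class cells with these UMIs had a median depth of 9474 UMIs, against 5036 in the rest of the class. With the Itgae cutoff on scaled counts, which removes deep cells with few Itgae molecules, Birc5 (-3.03), Ccnb2 (-1.50) and Stmn1 (-3.65) were lower in the rescued class.

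The MHC class II genes H2-Aa (32 UMIs in the class, 39 elsewhere; log2 ratio 1.61, 0.89 to 2.32), H2-Ab1 (37 and 59; 1.22) and H2-Eb1 (73 and 119; 1.19) were higher in the rescued class. In the control class they had 3, 1 and 1 UMIs. Of the dendritic cell markers in the table besides these, Xcr1 had 0 and 1 UMIs and Zbtb46 0 and 6 UMIs in the control and rescued class. The whole list summed to 188 CPM in the control class, 229 CPM in other control cells, 137 CPM in the rescued class and 107 CPM in other rescued cells. Most of each sum came from Ccr7, also a recirculation gene, at 180, 219, 91.8 and 87.5 CPM. Cd79b, a B cell receptor chain, had ratios of 0.92 (0.43 to 1.37) in control and 0.46 (0.22 to 0.70) in rescued cells, and Ighm of 0.81 and 0.19. Of the B cell genes, 2 of 2 compared in control cells and 0 of 5 compared in rescued cells were at least 1.5-fold higher. Over all genes compared the shares were 5.25% and 2.5%. The B cell list, of which 10 of 11 genes were in the table, summed to 1514 CPM in the control class, 871 in other control cells, 2182 in the rescued class and 1905 in other rescued cells, mostly Ighm. Ms4a1, Ebf1 and Pax5 had 0 UMIs in the control class and 4, 1 and 1 in the rescued class. The part of other cells or free RNA in these values was not tested.

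Inside the class, rescued cells were compared with control cells. Of 8089 genes with at least 40 UMIs over the class, 619 (7.65%) were at least 1.5-fold higher and 466 (5.76%) lower in rescued cells, and the median log2 ratio was 0.0072. The control class is small, so these counts include many genes with wide intervals: the interval was above 0 for 413 and below 0 for 431 genes.

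Foxp3, the lineage factor of Treg cells, had 65 UMIs (102 CPM) in the control class and 1652 (502 CPM) in the rescued class, a log2 ratio of 2.30 (1.95 to 2.68), beside 2.52 in the other cells. The libraries carry different engineered Foxp3 alleles, which cannot be told apart from the condition. TdTomato was at 371 and 655 CPM in the class (0.82, 0.62 to 1.02), and the other cells had 0.77. Itgb7 was 0.22 (0.06 to 0.38) higher in the rescued class, beside 0.23 in the other cells.

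Among genes with at least 100 UMIs, Lilrb4a, an inhibitory receptor with close relatives, had the largest ratio (2.84, 1.45 to 4.73, with 4 control and 147 rescued UMIs), beside 1.89 in the other cells. Tnf, the inflammatory cytokine, had 6 and 152 UMIs (2.30, 1.14 to 3.77), beside 0.65 in the other cells. Areg had 12 and 211 UMIs (1.77, 0.94 to 2.75), and the other cells had 1.45. Stmn1 was 2.57 (1.32 to 4.21) higher in the rescued class and -0.78 in the other cells. Fuca2, Mrps11 and Gbp2b completed the higher genes, with ratios of 1.83, 1.62 and 1.52. Tnfrsf9, the activation receptor 4-1BB, had 70 and 853 UMIs (1.24, 0.89 to 1.62), and Lrrc32, which anchors latent TGF-β on Treg cells, 63 and 671 (1.05, 0.67 to 1.44). In the other cells Tnfrsf9 and Lrrc32 had ratios of 0.75 and 0.92.

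Ctla2a (-1.70, -2.02 to -1.37) was the lowest in the rescued class, at 208 CPM in control and 64.1 CPM in rescued class cells, while in the other cells it had a ratio of 0.28. Penk (-1.36, -1.66 to -1.06) rested on the control cell described above, and without the highest cell of each population its ratio was 0.47. Cxcr4, which retains lymphocytes in marrow and follicles, was lower inside (-1.12, -1.55 to -0.67) and outside the class (-0.81), as were Actn1 (-1.32 and -1.91) and Ugcg (-1.10 and -1.34). St6galnac3 (-1.21), BC005561 (-1.20) and Cep57l1 (-1.17) completed the lower genes. The receptors Il1rl1 and Il18r1 were lower in the rescued class, with Il1rl1 at 68.9 CPM in control and 34.4 CPM in rescued class cells (log2 interval -1.52 to -0.47) and Il18r1 at 177 and 92.1 CPM (-0.94, -1.26 to -0.62). In the other cells they had ratios of 0.38 and -0.05. Il18rap (0.04, -0.95 to 1.18) and Il1r2 (0.29, -0.21 to 0.82) had intervals that included 0 in the class. Klrg1 was -0.68 (-1.14 to -0.21) in the class and 1.14 in the other cells. Of the effector receptors, 1 of 14 (Tnfrsf9) was at least 1.5-fold higher and 3 (Klrg1, Lag3 and Pdcd1) lower in the rescued class (median 0.22). Over all genes compared there, 7.65% were higher and 5.76% lower. Of 18 resting and recirculation genes 6 were lower, against 5.76% of all genes, and 0 higher (median -0.19). Among the lower were Tcf7 (-1.09, -1.44 to -0.74) and Ccr7 (-0.97, -1.29 to -0.65), beside -1.35 and -1.32 in the other cells.

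**Figure D5:**
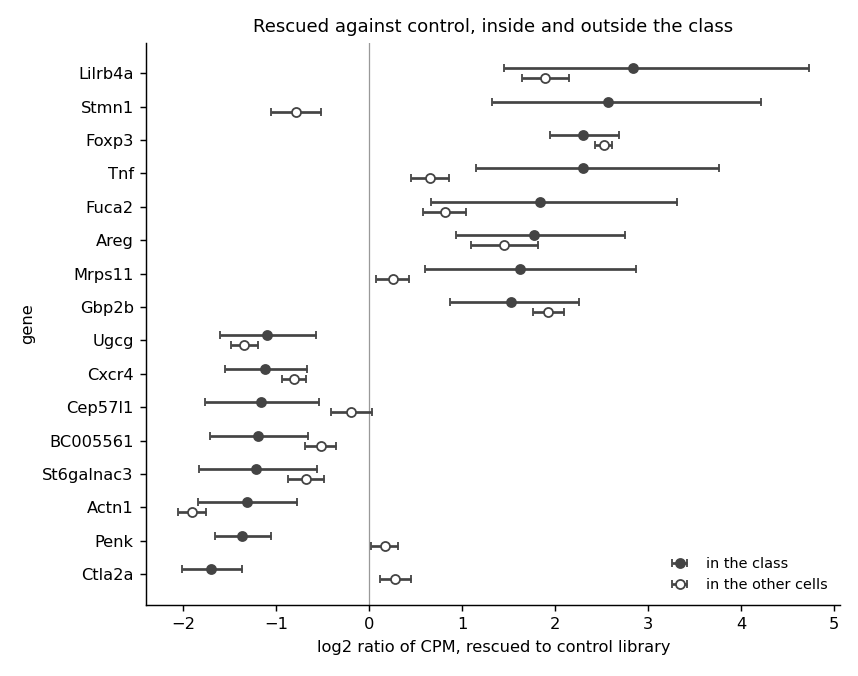
Log2 ratio of CPM in the rescued to the control library, in class cells (filled) and other cells (open), for the 8 highest and 8 lowest genes with at least 100 UMIs over the class, with 95% counting intervals. Foxp3, Lilrb4a, Areg and Gbp2b are higher in rescued cells inside and outside the class, while Stmn1, Penk and Ctla2a have opposite signs there.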

How the data were processed

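Single-cell RNA-seq was done by the study with the 10x Chromium 3′ v3 kit on 1 control and 1 rescued library. The authors processed reads with Cell Ranger 3.0 and a GRCm38 genome extended by the tdTomato sequence, and deposited whole-number UMI counts for 7024 cells and 16098 genes without normalization. A deposited log2 table was not used. Cells went to libraries by the prefix of their names, and 0 columns were left unused. The authors describe a limit of 5% mitochondrial transcripts, which 6859 cells exceed in the deposited counts, so it was not applied again. Possible doublets were kept; an alternative leaves out the 3.5% of cells with the most UMIs, the study's stated multiplet fraction.

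Counts were summed over each population and scaled to CPM with Python 3.11.15, numpy 2.4.6, scipy 1.17.1 and pandas 2.3.3. Ratios carry conditional exact intervals, shares Clopper-Pearson intervals and levels Poisson intervals (95%). Class and other cells were compared for genes with at least 10 UMIs expected in the class, and rescued and control class cells for genes with at least 40 UMIs over the class. A gene was counted as higher or lower at 1.5-fold, in each library for the class. A gene at 0 was given a bound from a floor of 3 counts, used where it leaves a difference. The genes named one by one were the 12 highest and 12 lowest among genes higher or lower in both libraries, by the smaller ratio, and the 8 highest and 8 lowest between rescued and control class cells with at least 100 UMIs. This ranking skipped 147 technical genes (T cell receptor, immunoglobulin, ribosomal and mitochondrial). Genes of the lists, tdTomato, Foxp3 and the genes of the rule were added; Arl5a came from the highest genes of the comparison with cells without Itgae. The class and the lists were chosen with earlier results of these data known. Coordinates are from the GENCODE annotation of GRCm38, matched by symbol. The ratios were tested on simulated data with independent counts and planted changes larger than 1.5-fold. UMIs concentrated in few cells were not simulated, so that test cannot speak for such genes. A homing receptor is not reported here and was taken off its list. Several dendritic cell, B cell and myeloid markers were not analysed here. Alternatives covered the Itgae cutoff, the excluded genes, the comparison cells, depth, mitochondrial share, scaling and the minimum, and 3 were chosen after seeing the data.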

Additional observations from a re-analysis of the deposited data

Results flagged for a closer look

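Stmn1 and Lsm11 had opposite directions in the libraries, with intervals on opposite sides of 0. Stmn1, a tubulin-binding protein of dividing cells, had a log2 ratio of class to other cells of -1.62 in the control library (5 UMIs in the class, 356 elsewhere) and 1.74 in the rescued library (153 and 171). Lsm11, a component of the complex that processes histone mRNA, had -1.26 in the control library (6 and 333) and 0.82 in the rescued library (82 and 173). These genes were singled out after their values were seen, and the difference between the libraries was not tested, since each library is 1 sample.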

How the results depend on the processing

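No paired analysis was possible because control and rescued cells are 1 library each, and the precision of every value is limited by the 117 control class cells. The settings without the cell with the most UMIs of a gene, without late cell cycle cells and with 8 further receptors excluded were chosen after seeing the data. The class was 3.22% of control and 15.5% of rescued cells, and 6.66% and 25.5% at 2 or more Itgae UMIs, 1.62% and 9.65% at 4 or more, 1.79% and 7.85% on scaled counts, 4.02% and 21.8% without the exclusion, 0.785% and 4.26% at 2000 UMIs per cell, and 0.963% and 4.04% with the 8 receptors excluded. At 10% mitochondrial UMIs or less it was 18.1% of rescued cells.

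Genes at least 1.5-fold higher and lower in the class in both libraries numbered 13 and 11. They numbered 23 and 25 at 2 or more Itgae UMIs, 8 and 23 on scaled counts, 33 and 18 without the exclusion, 46 and 27 against cells without Itgae, 4 and 23 with the other cells weighted to the class's depth, 6 and 4 at 3 times the minimum, and 254 and 93 with none. Between rescued and control class cells the 619 higher and 466 lower genes became 187 and 129 at 3 times the minimum and 1208 and 1115 with none.

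Some log2 ratios changed sign, and the cause was not tested. On scaled counts, class against other rescued cells was -0.15 for S100a6, -0.015 for Gna15, -0.10 for S100a4, -0.078 for Lgals1, 0.010 for Themis, -3.65 for Stmn1, 0.30 for Cxcr4, -0.45 for Klf2, -3.03 for Birc5 and -1.50 for Ccnb2. In control cells it was -1.04 for Aldh2, -0.10 for Dhx58 and -0.064 for Penk. Rescued against control class cells was 1.04 for Aldh2, -0.30 for Gbp2b, 0.57 for Penk, -0.0035 for Itgb7 and -0.11 for the median of the cell cycle list. At 2 or more Itgae UMIs, Nefh (0.015) and Lilrb4a (0.30) changed in control cells. At 4 or more, Fuca2 changed in control cells (0.039), Klf2 in rescued cells (-0.033), and Ly6c1 (0.063) and Atp1b1 (1.16) between the libraries. At 2000 UMIs per cell Lilrb4a changed in control cells (0.45), Klf2 in rescued cells (-0.016), and Ly6c1 (0.30) and Ccnb2 (-0.16) between the libraries, and the median of the homing receptors was -0.086 in rescued cells. Klf2 in rescued cells was also -0.26 against cells without Itgae, -0.31 without the exclusion, -0.00995 without late cell cycle cells and -0.046 without the 3.5% of cells with the most UMIs. Without the exclusion S100a6 was -0.080 between the libraries, and with weighting Penk was -0.015 in rescued cells. Without late cell cycle cells, Ccnb2 was -0.53 in rescued cells and Ccr10 -0.30 between the libraries. Without the 3.5% of cells with the most UMIs, Penk was -0.025 in control cells and 1.08 between the libraries, and Ccnb2 -0.095 in rescued cells and -0.95 between the libraries. Without its highest cells Penk was 0.47 between the libraries. Of the other values, 2056 moved by less than their interval and 320 by more.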

Other observations

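Genes outside the lists also differed in the class, chosen here after their values were seen. Gcnt1, an enzyme that builds branched glycans on selectin ligands, had 16 UMIs in the control class and 59 elsewhere (log2 ratio 2.65, 1.76 to 3.47) and 48 and 67 in rescued cells (1.42, 0.85 to 1.97). Fut7, the fucosyltransferase needed for selectin ligands, had 40 and 52 UMIs in rescued cells (1.52, 0.89 to 2.14) and 1 UMI in the control class. Among rescued class cells Fut7 was found in 3 of 17 cells with Ccr10 and in 30 of 507 without it. Lgals3, which encodes galectin-3, had ratios of 1.91 (1.21 to 2.55) and 1.34 (0.91 to 1.77). Lmna, a nuclear lamina gene, was higher in the rescued class (1.61, 1.19 to 2.03) and had an interval that included 0 in control cells (0.83, -0.26 to 1.76). Zbtb32, a transcriptional repressor, followed the same pattern (1.60, 1.02 to 2.17, and 0.86, -1.07 to 2.31).

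Further genes of dividing cells were higher in the rescued class: Ube2c had 82 UMIs in the class and 89 elsewhere (1.78, 1.33 to 2.23), in 29 class cells, and Cenpe 31 and 23 UMIs (log2 ratio 2.33). In the control class they had 1 and 2 UMIs.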
